A study of Mus musculus with 6 samples.

Results

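The 42 genes described here run the cell division cycle and the copying of DNA, and they were taken by symbol from a list of names: 4 G1 cyclins and cyclin-dependent kinases, 3 genes of the G1/S transition, 4 kinase inhibitors, 13 replication genes and 18 genes of mitosis. All 42 were found among the 24421 genes of the deposited table. They were followed in 3 groups of 2 SMART-seq libraries: regulatory T cells (Treg) stimulated in the presence of iBP, Treg stimulated without it, and unstimulated Treg. Every library was made from wild-type mouse cells, with spleen and lymph nodes given as the tissue, and the design text places iBP among inhibitors of H2AK119ub1, the ubiquitin mark that Polycomb repressive complex 1 sets on histone H2A. The design text also names Kdm2b conditional knockout mice, which are not analysed here. Activation took place in culture, and the stimulus, its length, the iBP dose and the age of the mice are not stated. No label ties a library to its own mouse, and each p-value therefore reflects the scatter of these libraries alone, which could be technical.

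A resting lymphocyte enters the cycle when D-type cyclins bind CDK4 or CDK6 and together phosphorylate the retinoblastoma protein, which frees E2F factors to switch on cyclin E and the replication genes. Inhibitors of the INK4 family (such as Cdkn2c and Cdkn2d) block CDK4 and CDK6, whereas Cdkn1a and Cdkn1b act on CDK2 complexes as well. CDC6 and CDT1 load the MCM2 to MCM7 ring onto origins, and the GINS complex turns that ring into an active helicase. Genes of mitosis are transcribed later, when the MuvB core, with B-MYB and FOXM1, activates promoters that the same core represses in resting cells as part of the DREAM complex.

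The proximal promoters of these genes differ by role, and 3 are shown here: Cdkn2d, which passed a test below, Mcm6, the most abundant member, and Top2a, the mitotic gene with the most CHR matches. Each line gives 250 bases before the RefSeq start on the minus strand, 5′ to 3′, build GRCm38.p6; capitals mark matches, on either strand, to the CHR element that MuvB binds (TTTGAA or TTCGAA), the E2F element (TTCCCGC or TTGGCGC) and the CCAAT box (CCAAT) bound by NF-Y.
Cdkn2d, chr9:21291210-21291459: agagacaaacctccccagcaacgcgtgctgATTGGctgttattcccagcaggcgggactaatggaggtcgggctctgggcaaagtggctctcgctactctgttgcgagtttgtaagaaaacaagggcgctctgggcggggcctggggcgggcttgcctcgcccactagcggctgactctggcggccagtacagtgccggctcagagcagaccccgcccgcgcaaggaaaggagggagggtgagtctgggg
Mcm6, chr1:128359706-128359955: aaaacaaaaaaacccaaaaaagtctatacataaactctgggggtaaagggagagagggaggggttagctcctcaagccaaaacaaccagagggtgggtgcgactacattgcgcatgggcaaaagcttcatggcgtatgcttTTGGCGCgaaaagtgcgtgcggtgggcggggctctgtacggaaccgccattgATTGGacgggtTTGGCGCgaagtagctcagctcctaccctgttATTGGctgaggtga
Top2a, chr11:99024190-99024439: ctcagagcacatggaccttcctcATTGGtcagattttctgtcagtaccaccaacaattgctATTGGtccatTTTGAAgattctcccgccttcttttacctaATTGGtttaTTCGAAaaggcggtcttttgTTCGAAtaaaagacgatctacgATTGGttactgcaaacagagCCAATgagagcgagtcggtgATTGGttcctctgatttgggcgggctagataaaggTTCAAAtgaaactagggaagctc
The Mcm6 sequence holds 2 E2F matches, which begin 109 and 46 bases before the start, and 2 CCAAT boxes. The Top2a sequence holds 4 CHR matches and 6 CCAAT boxes, where the other mitotic promoters hold 0 to 2 and 0 to 6, and the Cdkn2d sequence holds 1 CCAAT box and neither of the other elements. In the GENCODE annotation the Cdkn2d gene begins further upstream, at base 21291407. Most of the Cdkn2d bases shown therefore lie inside that gene, and the sequence before the GENCODE start was not searched in full.

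Over windows of 300 bases, which add the first 50 transcribed bases, RefSeq entries matched 35 of the 42 genes, with 39 promoters in all. The genes without an entry are Ccna2, Ccnd2, Ccne2, Aurkb, Gins2, Mcm4 and Tpx2. A CHR match was found in 12 of 15 promoters of mitotic genes (80.0%), 2 of 12 of replication genes (16.7%) and 0 of 12 of the G1 and inhibitor genes, against 14.3% of 9996 promoters of genes above the expression filter and 19.2% of 32851 promoters in all. E2F matches ran the other way, with 8 of 12 in replication genes (66.7%), 3 of 15 in mitotic genes (20.0%) and 1 of 12 in the G1 and inhibitor genes (8.33%), against 12.2% above the filter and 6.81% in all. CCAAT boxes were in 14 of 15 mitotic, 9 of 12 replication and 4 of 12 G1 and inhibitor promoters (33.3%), against 38.0% and 37.4%. The reversed second E2F word, GCGCCAA, shares its last letters with a CCAAT box where T follows. Members had a median of 24 CpG dinucleotides per window, against 21 above the filter and 7 in all. These are letter matches, not measured binding. Only the exact words listed were sought, so a promoter without a match, such as those of E2f1 and Ccne1 for E2F, is not shown to lack a site.

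Levels are in FPKM, fragments per kilobase of transcript scaled to all mapped fragments, and can be set side by side between genes. Genes with at least 1 FPKM in at least 2 libraries were tested, 10436 in all. Of the 42 members, 40 passed this filter; E2f1 (0.0968 to 1.16 FPKM) and Cenpf (0.175 to 0.61 FPKM) did not. Tests were made with limma on log2(FPKM + 1), with p-values adjusted over all 10436 genes and 0.05 as the threshold; ± after a log2 difference is its standard error, and a fold on this scale understates the change of low genes. Unstimulated replicate 1 stood apart from the others on the first principal component of all tested genes, with a score of 37.9, where unstimulated replicate 2 scored 9.32 and the remaining 4 libraries scored −13.3 to −10.5. Summed FPKM over all genes was 366044 and 366722 in iBP libraries, 375821 and 378906 in stimulated ones and 381302 and 374088 in unstimulated ones, and read depth is unknown.

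The label was checked against marker genes. Foxp3, the factor that defines Treg, read 121.6 and 124.4 FPKM in iBP libraries, 121.0 and 100.8 in stimulated ones and 35.5 and 47.1 in unstimulated ones. Of the 5 Treg markers, 3 passed as higher in stimulated and 3 in iBP libraries, each against unstimulated ones, and the 4 T-cell markers in the table summed to 377 to 411 FPKM. B-cell markers were present as well: the 5 genes of that list summed to 659 and 690 FPKM in iBP libraries, 800.4 and 752 in stimulated ones and 754 and 763 in unstimulated ones, and 0 of them passed the test in any of the 3 comparisons. The 5 germinal centre B-cell markers summed to 3.59 FPKM at most, with Mef2b at 0 in every library. Among 8 erythroblast markers, Hba-a1, an alpha-globin gene, read 9.29 and 123 FPKM in iBP libraries, 1.46 and 0 in stimulated ones and 179 and 0.843 in unstimulated ones. Others varied far less across the 6 libraries: Hbb-bs, a beta-globin gene, read 24.0 to 40.2 FPKM, Alas2 4.96 to 7.85 and Tfrc 25.1 to 35.6. Klf1, an erythroid transcription factor gene, was 1 of 3 in that list under 1 FPKM in all 6. Not every gene of the list is given, and these few do not stand for the rest. Myeloid markers summed to 66.4 to 100.3 FPKM, nearly all from Lyz2, plasma-cell markers to 28.8 to 56.1 FPKM and CD8 markers to 8.48 to 14.0 FPKM. B cells and erythroid precursors also use cell cycle genes, and their part in the values below was not tested. In bulk samples, fewer cells of a type cannot be told apart from less RNA per cell.

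**Figure D1:**
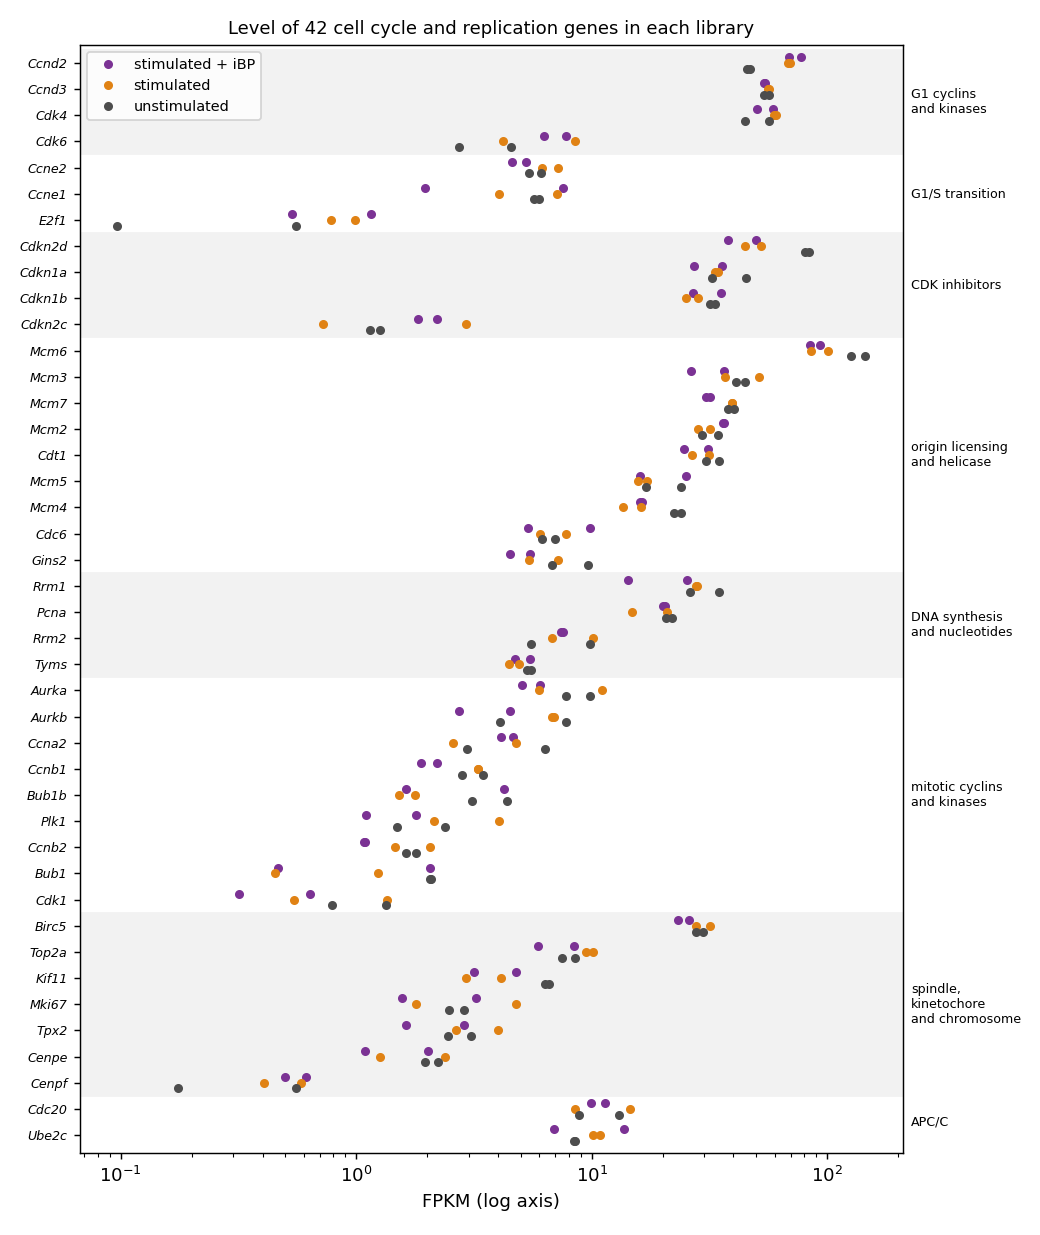
FPKM (log axis) of the 42 genes, by role, in each of the 6 libraries, with 1 point for each library; purple points are stimulated with iBP, orange stimulated and grey unstimulated. D cyclins, Cdk4, Cdkn2d and the MCM genes lie between 13.6 and 145 FPKM, whereas most mitotic genes lie under 12 FPKM.

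The members spanned a wide range of levels that followed their roles. The median of the gene means was 55.3 FPKM for the 4 G1 cyclins and kinases, 32.5 for the 4 inhibitors, 29.9 for the 9 licensing and helicase genes 13.8 for the 4 genes of DNA synthesis and 5.40 for the 3 G1/S genes. It was 2.80 for the 18 mitotic genes, against 8.42 over all genes tested. Mcm6 was the most abundant member, at a mean of 106 FPKM, above 94.3% of tested genes. Cdk1, the kinase that drives entry into mitosis, averaged 0.83 FPKM, above only 2.34% of them, and Mki67, the gene of the Ki-67 proliferation antigen, averaged 2.78 FPKM. Birc5, which encodes the chromosomal passenger protein survivin, stood out among the mitotic genes at 27.7 FPKM, where the next, Cdc20, an activator of the anaphase-promoting complex, averaged 11.1 FPKM. The median gap between libraries of a group was 0.38 (log2) for the mitotic genes, 0.20 for the replication genes and 0.18 for the G1/S genes, against 0.24 over all genes tested. The G1/S figure rests on the 2 tested genes, Ccne1 and Ccne2, and hides wide gaps: Ccne1 read 1.95 FPKM in iBP replicate 1 and 7.58 in iBP replicate 2.

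In stimulated against unstimulated libraries, which asks what stimulation of these cells changed, 1 of the 40 tested members passed: Cdkn2d fell. Among all tested genes 1.29% passed, 0.968% higher and 0.326% lower. The fitted difference was below 0 for 20 of the 40 members, against 50.3% of all genes, and the median was −0.03 against 0.00. Groups did not overlap for 5 members that were higher and 8 that were lower in stimulated libraries, where 18.7% and 19.1% of all genes did so. As a share, 5 of 40 is below the first of these and 8 of 40 is close to the second. The differences furthest from 0 belonged to low mitotic genes with wide errors, and the smallest p-values to Cdkn2d, Ccnd2, Mcm6 and Mcm4.

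Cdkn2d encodes p19INK4d, an inhibitor of CDK4 and CDK6, and lies at chr9:21288410-21291407 on the minus strand (GRCm38), where no other gene of the table overlaps it. It read 44.6 and 52.5 FPKM in stimulated libraries, against 80.9 and 84.0 in unstimulated ones. The groups did not overlap, and the log2 difference was −0.76 ± 0.16 (95% interval −1.11 to −0.41, adjusted p = 0.045). The difference stayed between −0.87 and −0.64 when 1 library was left out, but the call was lost each time, with adjusted p-values of 0.242 (stimulated replicate 1), 0.127 (stimulated replicate 2), 0.147 (unstimulated replicate 1), 0.12 (unstimulated replicate 2), 0.0584 (iBP replicate 1) and 0.055 (iBP replicate 2). It also ended with a pseudocount of 0.1 (0.0589), with only the 2 groups in the fit (0.0556), without the filter (0.529), without the variance trend (0.295) and with the replicate number as a block (0.11).

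The other 3 inhibitors did not pass. Cdkn1a, which encodes p21, read 34.6 and 33.4 FPKM in stimulated libraries and 45.1 and 32.4 in unstimulated libraries, so that the groups overlapped (log2 −0.17 ± 0.19, adjusted p = 0.846). Cdkn1b, which encodes p27, read 28.2 and 25.2 FPKM in stimulated libraries against 33.3 and 31.7 in unstimulated ones, without overlap (−0.28 ± 0.17, adjusted p = 0.635). Cdkn2c, the gene of p18INK4c, stayed between 0.72 and 2.93 FPKM in all 6 libraries. Cdkn2d made up 89.6% to 98.1% of the summed FPKM of the 4 INK4 genes in each library, and Cdkn2a was listed at 0 in all 6.

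Ccnd2, the gene of cyclin D2, lies at chr6:127125162-127152193 on the minus strand and read 69.3 and 68.4 FPKM in stimulated libraries, against 47.2 and 45.7 in unstimulated ones. The groups were well separated, but the difference of 0.56 ± 0.13 did not pass (adjusted p = 0.0744); it passed with a minimum of 5 FPKM (0.0464). The antisense gene 9330179D12Rik overlaps it and read 0.25 to 2.97 FPKM, and the strand setting is not stated, so reads of the pair may be mixed. Ccnd3, the gene of cyclin D3, read 55.9 and 56.8 FPKM in stimulated libraries, against 53.9 and 56.8 in unstimulated libraries, the narrowest range of all members (log2 0.03 ± 0.13, 95% interval −0.26 to 0.31). Ccnd1 read 1.54 FPKM at most, so that cyclin D2 and cyclin D3 RNA made up nearly all of the D cyclin sum: the share of Ccnd2 was 55.2% and 54.0% in stimulated libraries, against 46.3% and 44.1% in unstimulated ones.

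Cdk4 read 60.7 and 59.7 FPKM in stimulated libraries, against 56.5 and 44.9 in unstimulated libraries (0.25 ± 0.16, adjusted p = 0.625). Tspan31, on the other strand, overlaps Cdk4 and read 44.2 to 53.8 FPKM, so reads of that pair may be mixed. Bysl (7.89 to 14.5 FPKM) likewise overlaps Ccnd3, and Gse1 (3.06 to 5.91 FPKM) overlaps Gins2. Genes on the other strand also overlap Ccne2 (Ints8), Ccna2 (Exosc9), Ube2c (Tnnc2) and Cdc20 (Elovl1). Their levels are not given, and reads of those pairs may be mixed as well. Cdk6 read 8.52 and 4.20 FPKM in stimulated libraries against 2.74 and 4.55 in unstimulated ones, with overlap (0.63 ± 0.34, adjusted p = 0.546). Neither kinase passed. As a ratio of levels, Ccnd2 stood at 1.55 and 1.30 times Cdkn2d in stimulated libraries, against 0.584 and 0.543 times in unstimulated ones; this pair was chosen after its values were seen. Genes of the next step were low or scattered: Ccne1 read 7.15 and 4.03 FPKM in stimulated libraries, against 5.71 and 5.96 in unstimulated libraries, Ccne2 read 7.21 and 6.16 in stimulated libraries against 6.11 and 5.42 in unstimulated ones, and E2f1 stayed under 1 FPKM in those 4.

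**Figure D2:**
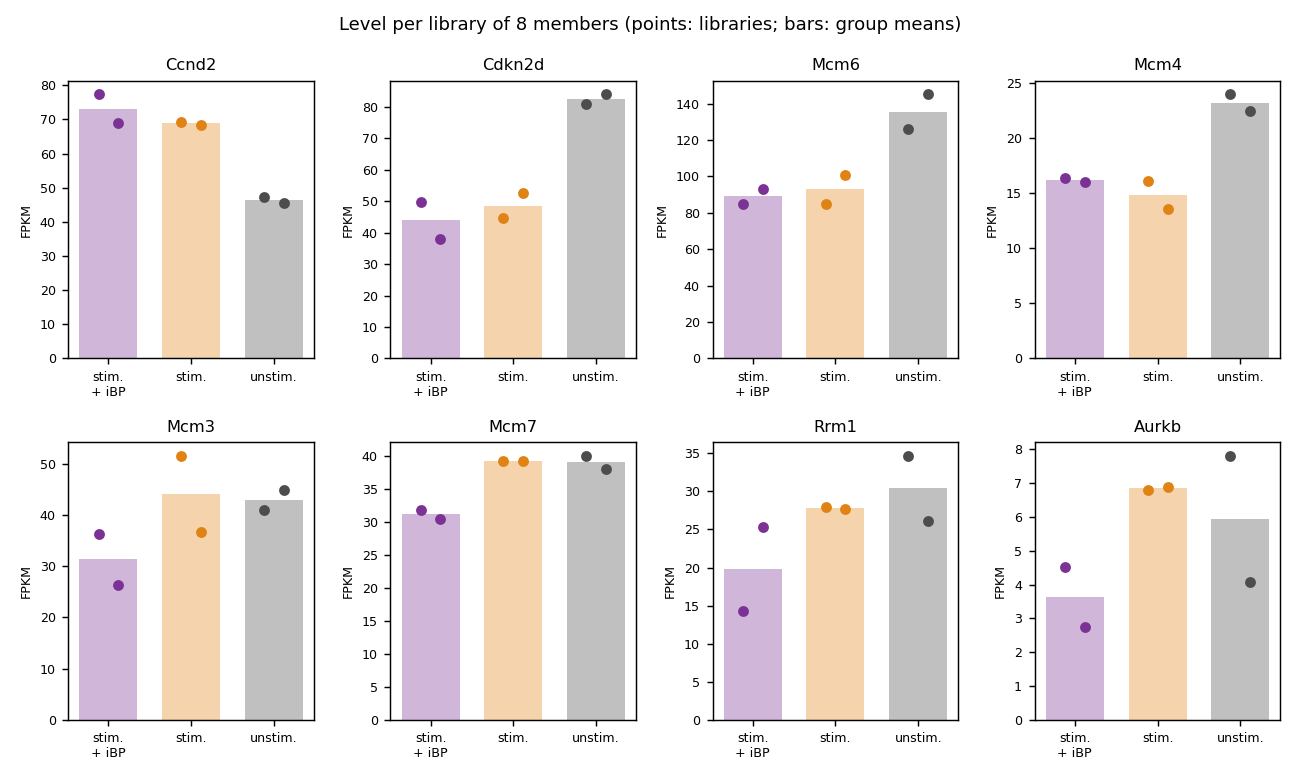
FPKM of 8 members in each library (points) with group means (bars), groups from left to right stimulated with iBP, stimulated and unstimulated. Ccnd2 is lowest, and Cdkn2d, Mcm6 and Mcm4 are highest, in both unstimulated libraries; Mcm7 and Aurkb are lower in both iBP libraries than in both stimulated ones.

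Of the 13 replication genes, 9 were below 0 and 0 passed. Mcm6 read 85.1 and 100.9 FPKM in stimulated libraries, against 126 and 145 in unstimulated ones (−0.54 ± 0.14, adjusted p = 0.0913). Mcm4 read 16.1 and 13.6 FPKM in stimulated libraries against 24.0 and 22.5 in unstimulated ones (−0.62 ± 0.18, adjusted p = 0.172). Both sets were free of overlap, and both genes encode subunits of the same hexamer whose other 4 members had differences of smaller size: Mcm3 at 0.02, Mcm7 at 0.01, Mcm2 at −0.08 and Mcm5 at −0.29. Within the summed FPKM of Mcm2 to Mcm7, Mcm6 took 36.0% and 42.1% in stimulated libraries, against 45.4% and 47.0% in unstimulated ones. The remaining licensing genes did not pass, with Cdt1 at −0.17 ± 0.18, Cdc6 at 0.05 ± 0.29 and Gins2 at −0.33 ± 0.27.

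None of the 4 genes of DNA synthesis passed. Pcna, the sliding clamp of the polymerases, read 20.8 and 14.8 FPKM in stimulated libraries, against 22.02 and 20.7 in unstimulated libraries. Rrm1, the large subunit of ribonucleotide reductase, read 27.9 and 27.7 FPKM in stimulated libraries against 34.7 and 26.1 in unstimulated ones. Rrm2, its small subunit, and Tyms, thymidylate synthase, differed by 0.15 ± 0.29 and −0.18 ± 0.26.

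Of the 17 tested mitotic genes, 0 passed, and 7 of 17 differences were below 0. The sum over all 18 was 96.5 and 113 FPKM in stimulated libraries, against 106 and 101 in unstimulated ones, so the groups overlapped. Kif11, the motor that separates spindle poles, read 4.11 and 2.92 FPKM in stimulated libraries against 6.62 and 6.33 in unstimulated ones (−0.74 ± 0.29, adjusted p = 0.371). Bub1b, a spindle checkpoint kinase gene, read 1.52 and 1.78 FPKM in stimulated libraries against 3.11 and 4.39 in unstimulated ones (−0.83 ± 0.37, adjusted p = 0.457), and its partner Bub1 read 1.24 and 0.45 in stimulated libraries against 2.06 and 2.08 in unstimulated ones (−0.77 ± 0.42, adjusted p = 0.562). These 3 did not overlap between groups. Markers in common use for dividing cells did not pass: Mki67 read 1.80 and 4.76 FPKM in stimulated libraries, against 2.87 and 2.48 in unstimulated libraries, with a difference of 0.13 ± 0.40. Top2a, the DNA topoisomerase of mitotic chromosomes, read 10.1 and 9.45 FPKM in stimulated libraries against 8.46 and 7.47 in unstimulated ones (0.27 ± 0.24, adjusted p = 0.783). Levels of Aurka, a centrosome kinase gene, were 5.95 and 11.04 FPKM in stimulated libraries, against 9.80 and 7.75 in unstimulated libraries. Birc5 read 27.8 and 31.7 FPKM in stimulated libraries against 27.6 and 29.6 in unstimulated ones, and Cdc20 read 8.52 and 14.6 in stimulated libraries against 8.86 and 13.1 in unstimulated ones, all with overlap. Ube2c, the gene of a ubiquitin-conjugating enzyme that works with the anaphase-promoting complex, read 10.9 and 10.2 FPKM in stimulated libraries against 8.48 and 8.43 in unstimulated ones, without overlap (0.28 ± 0.28, adjusted p = 0.809).

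**Figure D3:**
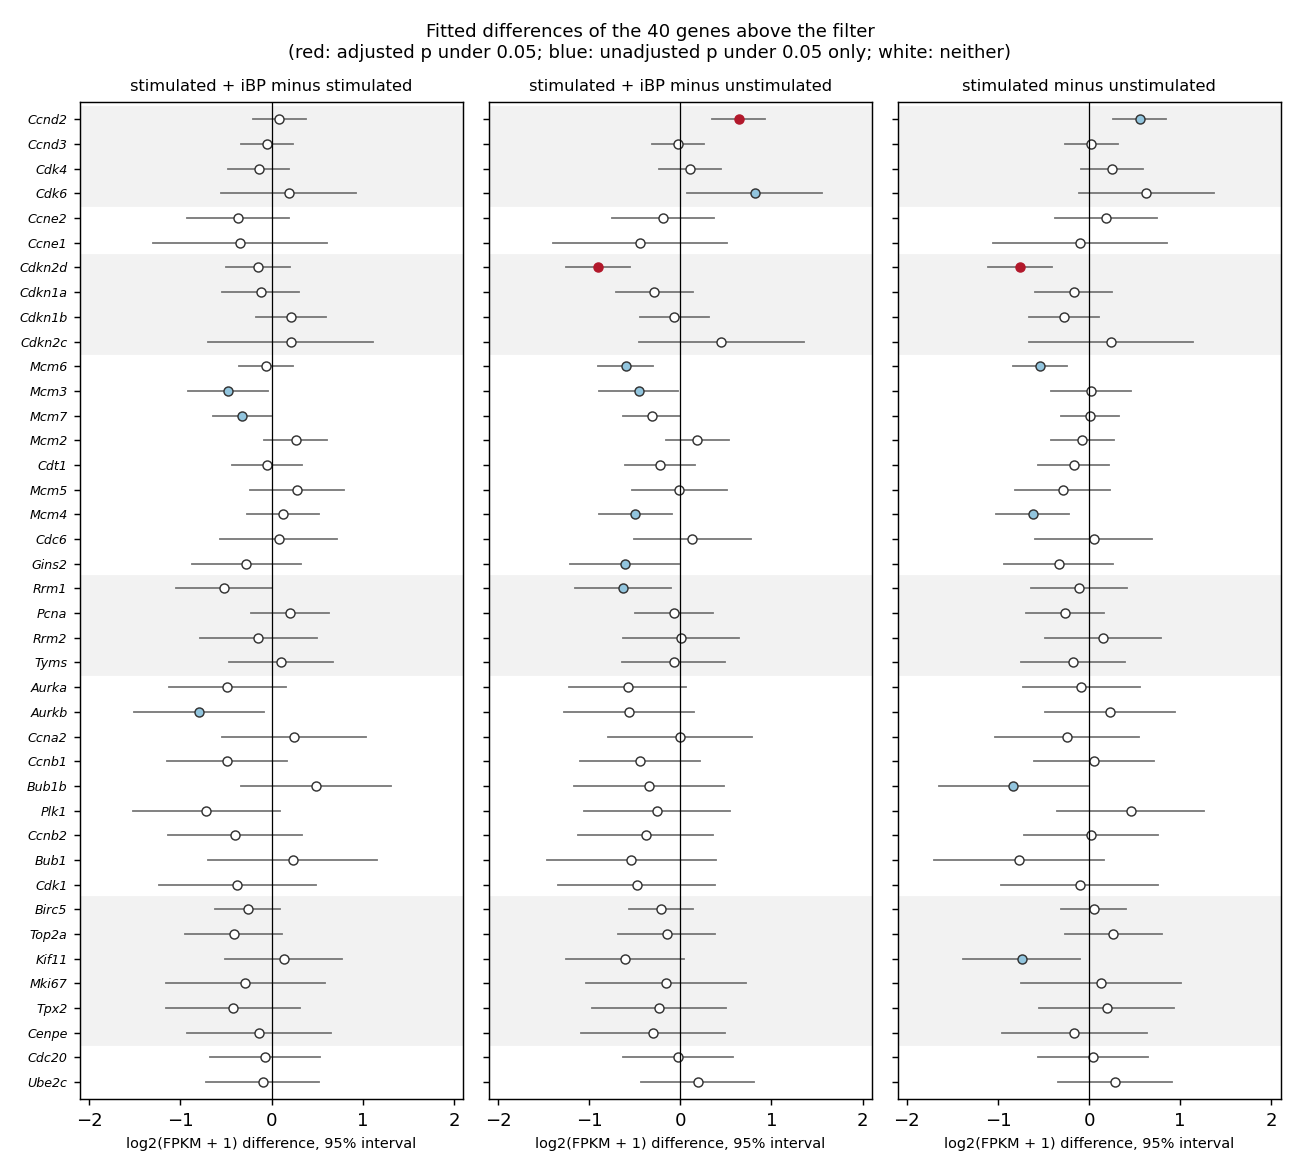
Fitted log2(FPKM + 1) differences with 95% intervals for the 40 genes above the filter, by role, in 3 comparisons. Red points passed at an adjusted p under 0.05 (Ccnd2 and Cdkn2d with iBP against unstimulated, Cdkn2d with stimulation), blue points reached only an unadjusted p under 0.05, and white points neither.

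In iBP against stimulated libraries, which asks how stimulated cells differ when iBP is present, 0 of the 40 members passed with limma, against 1 of all 10436 genes (0.00958%). At an unadjusted p under 0.05 there were 3 members, all lower, which is 7.5% of the 40 where 4.77% of all genes reached it in either direction. Fitted differences were below 0 for 26 of 40 members, against 55.8% of all genes, and their median was −0.13 against −0.03. Groups did not overlap for 12 members lower and 1 higher in iBP libraries, where 21% and 13.6% of all genes did so. The median half-width of the 95% interval for a single gene, not adjusted for the number of genes, was 0.60. Changes of that size or smaller would mostly not be seen. Larger ones can be missed too: Aurkb, at −0.79, had an adjusted p of 0.998 (limma). The lack of calls therefore sets no bound of 0.60 on a change.

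The 3 members at an unadjusted p under 0.05 were Mcm3, Mcm7 and Aurkb. Mcm3 read 36.4 and 26.3 FPKM in iBP libraries, against 51.6 and 36.7 in stimulated ones (−0.48 ± 0.20, unadjusted p = 0.0344, limma). Mcm7 read 31.9 and 30.6 FPKM in iBP libraries against 39.3 and 39.3 in stimulated ones (−0.32 ± 0.14, unadjusted p = 0.0463, limma). Both are ring subunits and were lower in both iBP libraries, though for Mcm3 the higher iBP value nearly met the lower stimulated one. The gene Cops6, on the other strand, overlaps Mcm7 and read 130 and 164 FPKM in iBP libraries and 155 and 183 in stimulated ones, so reads may be shared. Mcm2 lay in the other direction, at 36.6 and 36.1 FPKM in iBP libraries against 28.4 and 31.9 in stimulated ones (0.27 ± 0.16). The ring as a whole summed to 222 and 227 FPKM in iBP libraries, against 236 and 239 in stimulated ones.

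Aurkb, the kinase of the chromosomal passenger complex, read 4.51 and 2.73 FPKM in iBP libraries, against 6.81 and 6.89 in stimulated ones (−0.79 ± 0.33, unadjusted p = 0.0326, limma). Plk1, a kinase needed for spindle assembly, read 1.10 and 1.80 FPKM in iBP libraries against 2.14 and 4.02 in stimulated ones (−0.71 ± 0.37, unadjusted p = 0.076, limma). Ccnb1, cyclin B1, read 2.202 and 1.89 FPKM in iBP libraries against 3.27 and 3.28 in stimulated ones, and Ccnb2, cyclin B2, read 1.09 and 1.08 in iBP libraries against 1.46 and 2.06 in stimulated ones. Values of these 4 genes did not overlap between groups, but each adjusted p was 0.998. Over the 17 tested mitotic genes, 13 differences were below 0 and 6 had no overlap, all lower, and the median was −0.29, where 55.8% of all genes were below 0, 21% were lower without overlap and the median was −0.03. The sum over the 18 mitotic genes was 95.7 and 76.8 FPKM in iBP libraries, against 96.5 and 113 in stimulated ones, so iBP replicate 1 lay within 1 FPKM of stimulated replicate 1. Some mitotic genes lay above 0: Bub1b was at 0.48 ± 0.37, Ccna2 at 0.24 ± 0.36 and Bub1 at 0.23 ± 0.42. With iBP, Aurka read 6.02 and 5.07 FPKM, Birc5 25.9 and 23.4, Top2a 8.38 and 5.94, Cdc20 9.92 and 11.3, and Ube2c 13.7 and 6.89. Over the same pairs of libraries, the 5 B-cell markers were also lower in sum with iBP, as given above, and their part was not tested.

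The 4 genes with the smallest p-values in the stimulation comparison gave small differences here. With iBP, Ccnd2 read 77.4 and 69.0 FPKM and differed from stimulated libraries by 0.08 ± 0.13 (95% interval −0.21 to 0.38). Cdkn2d read 49.8 and 38.0 FPKM, a difference of −0.15 ± 0.16 (interval −0.50 to 0.20). Mcm6 read 85.0 and 93.0 FPKM (−0.06 ± 0.14) and Mcm4 16.4 and 16.1 FPKM (0.12 ± 0.18). Rrm1 read 14.3 and 25.3 FPKM with iBP, against 27.9 and 27.7 in stimulated libraries (−0.52 ± 0.24, adjusted p = 0.998), and the gap came mostly from iBP replicate 1. Ccne1 read 1.95 and 7.58 FPKM in iBP libraries, and Ccne2 read 4.61 and 5.26.

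**Figure D4:**
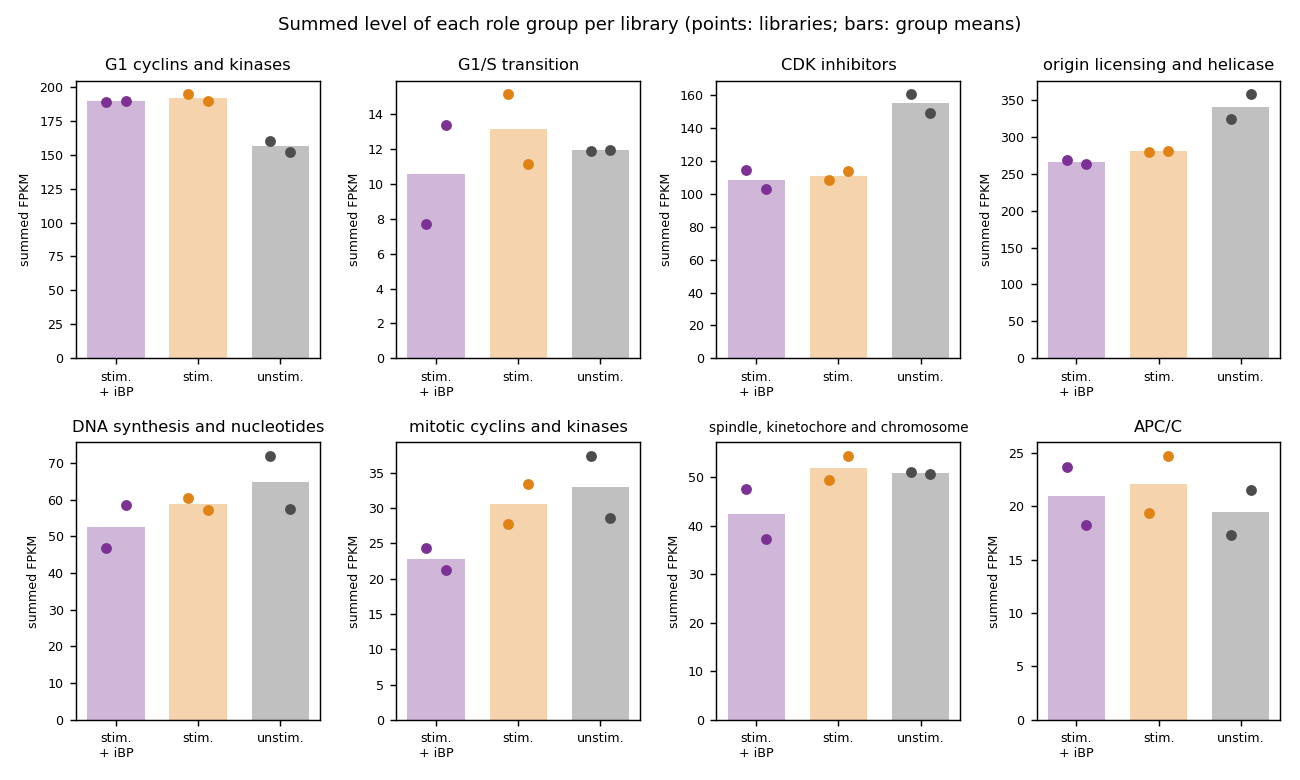
Summed FPKM of each role group per library (points) with group means (bars), from left to right stimulated with iBP, stimulated and unstimulated. The sum of G1 cyclins and kinases is lowest (152 to 160.4 FPKM), and those of inhibitors (149 to 161 FPKM) and of licensing and helicase genes (324 to 357 FPKM) are highest, in the unstimulated libraries.

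In iBP against unstimulated libraries, a comparison that shares its iBP and its unstimulated libraries with those above, 2 of the 40 members passed: Ccnd2 rose and Cdkn2d fell. Among all genes 1.75% passed, 1.03% higher and 0.728% lower. Ccnd2 stood at 73.2 ± 5.93 FPKM in iBP libraries and 46.5 ± 1.12 in unstimulated ones (SD, n = 2 each; limma log2 difference 0.64 ± 0.13, adjusted p = 0.033). Cdkn2d stood at 43.9 ± 8.34 FPKM in iBP libraries against 82.5 ± 2.2 in unstimulated ones (SD, n = 2 each; limma −0.91 ± 0.16, adjusted p = 0.0143). Neither pair of groups overlapped. The Ccnd2 call ended without iBP replicate 1 (adjusted p = 0.334), iBP replicate 2 (0.155), unstimulated replicate 1 (0.101) or unstimulated replicate 2 (0.0842), and with the replicate number as a block (0.0794). The Cdkn2d call ended without iBP replicate 2 (0.195), unstimulated replicate 1 (0.069) or unstimulated replicate 2 (0.0625). Both ended without the filter and without the variance trend.

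Mcm6 lay just outside the threshold, at 89.0 ± 5.70 FPKM in iBP libraries and 135 ± 13.6 in unstimulated ones (SD, n = 2 each; limma −0.60 ± 0.14, adjusted p = 0.0521). It passed with a minimum of 5 FPKM (0.0304), with robust variances (0.0374), with only the 2 groups in the fit (0.0462), and without stimulated replicate 1 (0.0472) or 2 (0.0477). Fitted differences were below 0 for 31 of 40 members, against 54.4% of all genes, with a median of −0.23 against −0.03. Groups did not overlap for 16 members lower and 4 higher in iBP libraries, where 23.9% and 18.1% of all genes did so. The 4 higher were Ccnd2, Cdk6, Cdkn2c and Mcm2. Cdk6 had the highest difference of all members, at 0.81 ± 0.34 (limma adjusted p = 0.344). It read 6.30 and 7.80 FPKM in iBP libraries, against 2.74 and 4.55 in unstimulated ones. Among the lower ones, Rrm1 differed by −0.63 ± 0.24, Gins2 by −0.61 ± 0.27, Mcm4 by −0.49 ± 0.18 and Mcm3 by −0.46 ± 0.20, with adjusted p-values of 0.277 to 0.398. Without iBP replicate 1 the Rrm1 difference was −0.24, and without iBP replicate 2 the Mcm3 difference was −0.23. Summed over all 42 members, levels were 721 and 704 FPKM in iBP libraries, 754 and 765 in stimulated ones and 835 and 829 in unstimulated ones; these sums do not overlap and carry no test. They are weighted by the abundant genes: without Mcm6 and Cdkn2d, a pair chosen after the values were seen, the other 40 members summed to 586 and 573 FPKM in iBP libraries, 624 and 612 in stimulated ones and 628 and 600.01 in unstimulated ones, so that stimulated and unstimulated libraries overlapped.

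A wider set of 153 cell cycle genes, none of them members, had 145 above the filter, and 0 passed in any of the 3 comparisons. In stimulated against unstimulated libraries, 84 of the 145 differences were below 0 (57.9%), against 50.3% of all genes. At an unadjusted limma p under 0.05, 5 were higher and 16 lower. Over all genes 5.88% and 4.93% reached that level in each direction. The nearest to passing were Cdkn3, a phosphatase gene that acts on CDKs, and Cenpm, a kinetochore gene. Cdkn3 read 1.25 and 1.96 FPKM in stimulated libraries, against 6.75 and 4.86 in unstimulated ones (−1.38 ± 0.33, adjusted p = 0.0722), and Cenpm read 4.49 and 2.71 in stimulated libraries against 10.6 and 8.38 in unstimulated ones (−1.21 ± 0.29, adjusted p = 0.0794). Neither set overlapped.

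Among 50 other replication genes, 49 tested, Mcm10, an initiation factor, read 5.44 and 7.12 FPKM in stimulated libraries, against 2.38 and 2.96 in unstimulated ones (0.98 ± 0.30, adjusted p = 0.199), and Rnaseh2a, a ribonuclease H2 subunit gene, differed by 0.56 (0.458). Rpa1, the large subunit of the single-strand binding complex, read 23.1 and 31.7 FPKM in stimulated libraries against 40.3 and 39.0 in unstimulated ones (−0.53 ± 0.18, adjusted p = 0.277), and Slbp, which binds histone mRNA, differed by −0.38 (0.274). Of the 50 other mitotic genes, 46 tested, Kif20a, a cytokinesis motor gene, stood at 0.91 (0.296) and the condensin gene Smc4 at 0.31 (0.338), with 265 and 270 FPKM in stimulated libraries against 197 and 235 in unstimulated ones. In the G1/S list of 17 genes, Cables1 stood at −1.25 (0.236) and Mnat1, a subunit of the CDK-activating kinase, at −0.66 (0.313). Among 15 tested checkpoint and p53 genes, Sesn1 stood at −0.52 (0.174) and Pmaip1 at −0.41 (0.310). The 18 tested genes of pocket proteins, DREAM and antiproliferative factors had 0 at an unadjusted p under 0.05, with a median of −0.10.

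In iBP against stimulated libraries, 86 of the 145 wider genes were below 0 (59.3%), close to the 55.8% of all genes. At an unadjusted limma p under 0.05, 3 were higher and 5 lower, where all genes had 1.46% and 3.32%. Shcbp1, a gene expressed in dividing cells, read 2.04 and 2.82 FPKM in iBP libraries, against 5.88 and 5.32 in stimulated ones (−0.95 ± 0.28). Ncaph, a condensin gene, differed by −0.65 and Dtymk, thymidylate kinase, by −0.32. Fbxo5, an inhibitor of the anaphase-promoting complex, differed by −0.84, but with overlap: it read 10.9 and 3.47 FPKM in iBP libraries, against 10.6 and 13.5 in stimulated ones, so only iBP replicate 2 was low. On the higher side were Nek2 at 0.88, Cenpm at 0.80 and Pold1, the catalytic subunit of DNA polymerase delta, at 0.56. The adjusted p of each was 0.998.

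In iBP against unstimulated libraries, 101 of the 145 wider genes were below 0 (69.7%), against 54.4% of all genes. At an unadjusted limma p under 0.05, 1 was higher and 19 lower, where all genes had 5.22% and 7.02%. Cdkn3 stood at −1.31 (adjusted p = 0.0761) and Gmnn, the gene of the licensing inhibitor geminin, at −1.01 (0.114), with 5.79 and 7.64 FPKM in iBP libraries, against 19.1 and 10.8 in unstimulated ones. Kif23 stood at −1.04 (0.216), Fbxo5 at −0.93 (0.313, with 12.9 and 12.9 FPKM in unstimulated libraries and again only iBP replicate 2 far below them), Rpa3 at −0.71 (0.178), Tob1 at −0.66 (0.343), Mnat1 at −0.58 (0.344), Lin52 at −0.55 (0.392), Sesn1 at −0.40 (0.302) and Pmaip1 at −0.39 (0.280). Smc4 was the 1 higher gene, at 0.34 (0.224).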

How the data were processed

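The authors deposited FPKM values, 1 column for each of the 6 libraries; per the submitters' processing notes they used HISAT2 2.2.1, StringTie 2.1.1 and build mm10. Annotation, strand, the handling of multi-mapped reads and any scaling between libraries are not stated. FPKM is relative, so a shift in abundant genes moves the others, and with no counts no counting error can be given.

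The 10436 of 24421 genes that reached 1 FPKM in 2 or more libraries were fitted as log2(FPKM + 1) with limma 3.58.1 (R 4.3.3): 3 groups, moderated variances with a trend, two-sided, Benjamini-Hochberg over all genes. The fit was tested on simulated data. Members, lists and tests were chosen with earlier results of these data known. Genes named with values are the most abundant 2 of each role, those with an unadjusted p under 0.05, and those without overlap and a difference of at least 0.5; in the wider lists, up to 2 per direction with the smallest p. A few others were added to complete a family after their values were seen. Coordinates are GENCODE M21 (GRCm38) and promoters RefSeq GRCm38.p6, matched by symbol. Alternatives were 2 other filters, 3 scalings, another pseudocount, 2 variance models, fewer groups, a replicate block and leaving out each library. One marker gene, and the sum of the list that holds it, is not reported here.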

Additional observations from a re-analysis of the deposited data

How the results depend on the processing

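For stimulated against unstimulated, the count of members past the test (1) became 0 with a pseudocount of 0.1, without the filter, without the variance trend, with only the 2 groups compared and with the replicate block, 2 with a minimum FPKM of 5, and 0 when any 1 library was left out. All genes past the test (135) numbered 16 without the filter, 12 without the trend, 77 with only the 2 groups, 79 with the block, and 51 to 138 with 1 library left out. For iBP against stimulated, members past the test numbered 0 under all 16 alternatives. All genes (1) numbered 14 without the filter, 0 without the trend and 0 to 4 with 1 library left out. For iBP against unstimulated, members (2) numbered 0 without the filter and without the trend, 1 with the block and 0 to 3 with 1 library left out. All genes (183) numbered 21, 9, 109 and 44 to 188 under the same settings. The cause was not tested.

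The log2 ratio of the members' summed level, iBP over stimulated (−0.09), was −0.049 after rescaling to TPM and −0.052 with median-of-ratios scaling; iBP over unstimulated (−0.22) was −0.18 and −0.19. For licensing and helicase genes, iBP over stimulated (−0.08) was −0.035 and −0.038, and for G1 cyclins and kinases it changed sign (−0.02, against 0.023 and 0.020).

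Equal replicate numbers did not deviate together: correlations of deviations were −0.01, −0.02 and −0.05, so the block is a number shared by name only. Counting each named gene and setting once, 635 values kept their side of the threshold, 23 lost a call and 6 gained one. Most of the 635 were values of genes that had not passed in the comparison concerned, so this total does not show that the calls were stable. All 23 losses fell on the main calls: Cdkn2d in stimulated against unstimulated, and Cdkn2d and Ccnd2 in iBP against unstimulated. Each of these calls was lost under some of the 16 alternatives and kept under others. The sign changed for 15 values of genes that had not passed and for 0 of those that had.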
